A study of Homo sapiens with 4 samples.

Results

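The genes described here are 38 regulators of apoptosis, chosen by name: the BCL2 family, caspases, inhibitors of apoptosis, death receptors, their ligand TNFSF10 and their adaptors. Of these, 35 had a value on the arrays, out of 18323 genes, and all 35 passed the filter on dim genes. BCL2L2 shared its probe set with a read-through gene and was not used, and BIRC3 and RIPK1 were not analysed here. Expression was measured in the human nasopharyngeal carcinoma lines HK1 and HK1EBV, whose name marks the latter as HK1 with Epstein-Barr virus. The groups were HK1 with DMSO, HK1 with caffeic acid phenethyl ester (CAPE), HK1EBV with DMSO and HK1EBV with CAPE. DMSO was given at 0.1% and CAPE, a phenolic ester of propolis, at 110 µM, each for 24 h. The labels do not say whether CAPE-treated cells also received DMSO, nor whether HK1EBV is a single clone.

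Apoptosis is started at mitochondria or at the cell surface, and each route is held by inhibitors. In the mitochondrial route, BH3-only proteins bind the BCL2-like inhibitors and free the pore formers BAX and BAK1, after which cytochrome c assembles APAF1 and CASP9 into the apoptosome. In the surface route, the ligand TRAIL, encoded by TNFSF10, binds the receptors TNFRSF10A and TNFRSF10B, which recruit FADD and CASP8, while TNFRSF10D is a decoy whose truncated tail cannot pass the signal on. CFLAR blocks CASP8 at the receptor, and XIAP and BIRC2 act further down. CAPE is known as an inhibitor of NF-κB, a factor that drives several survival genes of this set.

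Expression was read on Affymetrix arrays with 1 array per group, so values for a single line or a single treatment could not be set against a replicate spread. Arrays correlated with each other at 0.983 to 0.991 over all probe sets, and their medians lay between 2.23 and 2.27 in log2 units. Of 8 squamous epithelial markers 6 had a value, spanning 2.26 to 10.25 over the arrays, with KRT5 and KRT14 at 9.13 to 10.25. Among 8 leukocyte, 6 fibroblast and 4 endothelial markers, CD68 was the brightest, at 7.28 and 7.88 with DMSO and 8.51 and 9.03 with CAPE in HK1 and HK1EBV. COL1A1 followed at 3.42 to 3.64, and the defining markers PTPRC, LUM and PECAM1 lay between 0.45 and 0.90. Summed over the 7 leukocyte markers with a value, log2 values came to 13.3 and 14.3 with DMSO and 14.6 and 14.8 with CAPE, with CD68 the largest part. Their part in the results was not tested. Fewer cells of a type and less RNA per cell cannot be told apart in such bulk samples.

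**Figure D1:**
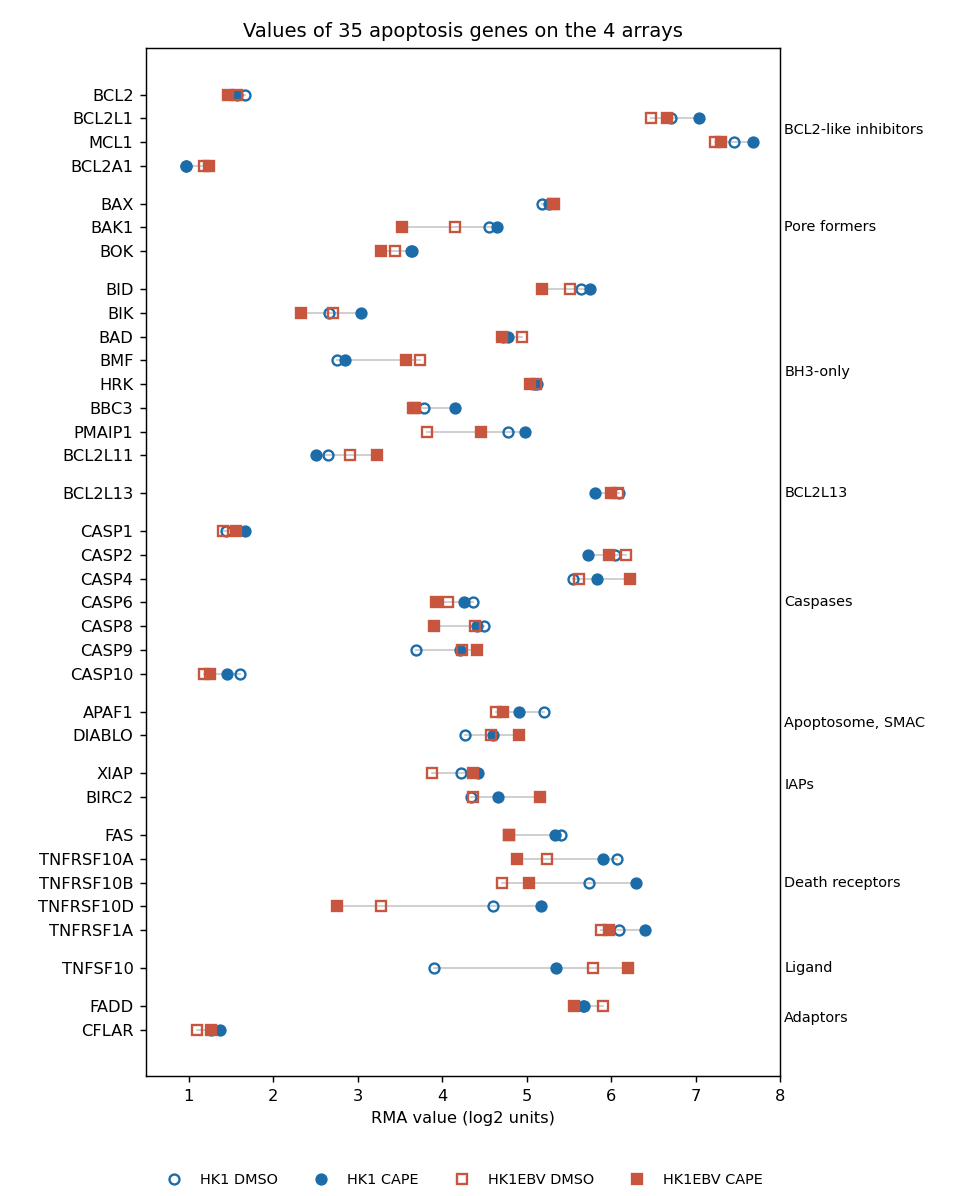
RMA values in log2 units (horizontal axis) of the 35 measured genes, grouped by role, with 1 point per array: circles for HK1, squares for HK1EBV, open for DMSO and filled for CAPE. TNFRSF10D and TNFSF10 spread most widely, from 2.76 to 5.17 and from 3.90 to 6.20, and most other genes spread over less than 1 unit.

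The first comparison asked what CAPE changed. The largest value was that of TNFSF10, the TRAIL ligand, at 1.45 higher in HK1 and 0.41 higher in HK1EBV. BIRC2, a ubiquitin ligase of the receptor complex, CASP4, an inflammatory caspase, and the TRAIL receptor gene TNFRSF10B followed, all higher in both lines. Of the 35 genes 0 passed the test of the CAPE effect over both lines (limma, Benjamini-Hochberg adjustment over 15194 genes), where 0.00658% of all genes did, as 1 gene that fell. At an unadjusted p under 0.05 there were 8 higher and 0 lower, against 10.2% and 9.31% of all genes. With arrays shifted to one median, 1 member passed (TNFSF10), among 482 genes higher and 524 lower, and with quantile normalization 359 and 396 genes passed. Without 57 genes whose residual was exactly 0, 2 members passed as higher, TNFSF10 and BIRC2, against 4.07% of all genes higher and 4.14% lower.

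Line by line, 1 gene in HK1 was at least 1.5-fold higher with CAPE and 0 were lower, against 3.38% and 3.79% of all genes. In HK1EBV 3 were higher and 1 lower, against 3.90% and 3.63%. At 2-fold the counts were 1 higher in HK1 (0.671% of all genes higher, 0.684% lower) and 0 in HK1EBV (0.691% and 0.533%), and 0 members reached 1.5-fold in both lines, where 1.35% of all genes were higher and 1.56% lower. Member medians of the CAPE change were 0.10 (HK1) and 0.03 (HK1EBV), where all genes had 0.02 and 0.00. Both lines went the same way in 22 of the 35, or 62.9%, against 61.6% of all genes.

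**Figure D2:**
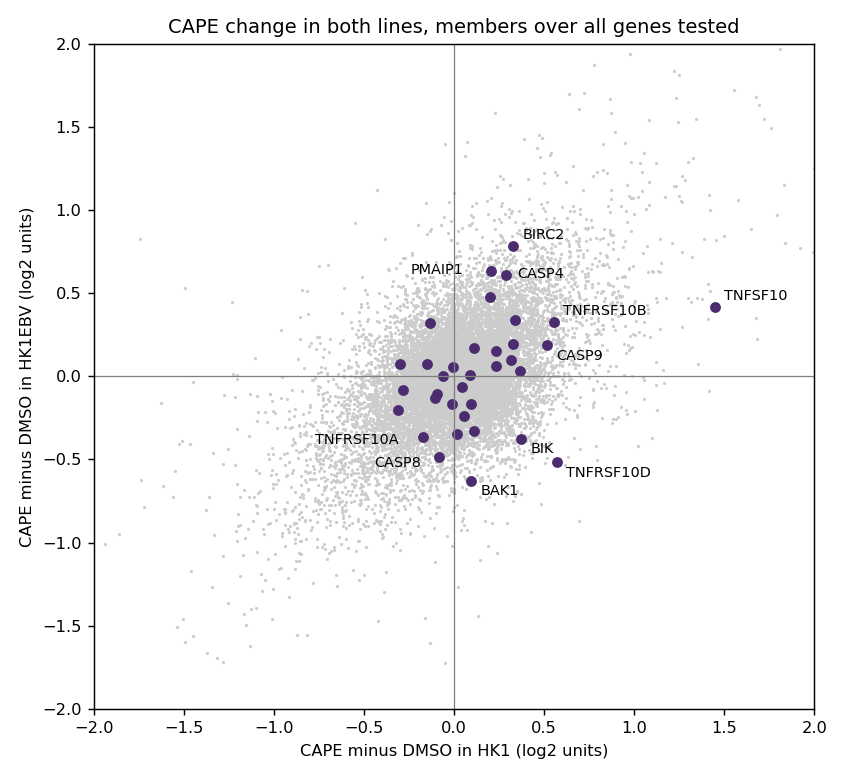
CAPE minus DMSO in HK1 (horizontal) and HK1EBV (vertical), in log2 units, for the 35 genes (dark points) over all genes tested (grey), with 14 other genes outside the axes not drawn. TNFSF10 stands to the right at 1.45 and 0.41, and TNFRSF10D, BIK and BAK1 lie below 0 for HK1EBV and above 0 for HK1.

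The second comparison asked how HK1EBV differed from HK1. The 3 measured TRAIL receptor genes fell in HK1EBV, by 3.64-fold for TNFRSF10D, 2.21-fold for TNFRSF10B and 1.90-fold for TNFRSF10A. BMF, a BH3-only gene, rose by 1.80-fold. TNFSF10 was 2.58-fold higher on average, and FAS, PMAIP1 and BAK1 were 1.49-fold, 1.67-fold and 1.69-fold lower, but these 4 did not pass. The test over both treatments thus called 1 member higher and 3 lower of 35 (limma, adjusted p under 0.05), against 1.32% and 1.58% of all genes. At an unadjusted p under 0.05 there were 5 higher and 12 lower, against 12.4% and 10.6%.

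These 4 calls were lost without the filter on dim genes and without treatment as a term, and 3 of them, those of the receptors, held with a trended prior. Without the genes of zero residual 2 members passed as higher and 6 as lower, against 6.26% and 5.34% of all genes, with TNFSF10, FAS, PMAIP1 and BAK1 added. With arrays shifted to one median the split of all genes was 865 higher and 661 lower, against 200 and 240. In DMSO 2 members were at least 1.5-fold higher in HK1EBV and 5 lower, against 4.40% and 3.96% of all genes. Under CAPE 3 were higher and 5 lower, against 5.37% and 4.76%. At 2-fold there was 1 higher and 2 lower in DMSO (0.895% and 0.974% of all genes) and 0 higher and 4 lower under CAPE (0.928% and 1.13%). In 20 of the 35, or 57.1%, HK1EBV was lower under both treatments, against 31.7% of all genes. The median difference was -0.10 in DMSO and -0.12 under CAPE, against 0.01 and 0.00 for all genes.

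**Figure D3:**
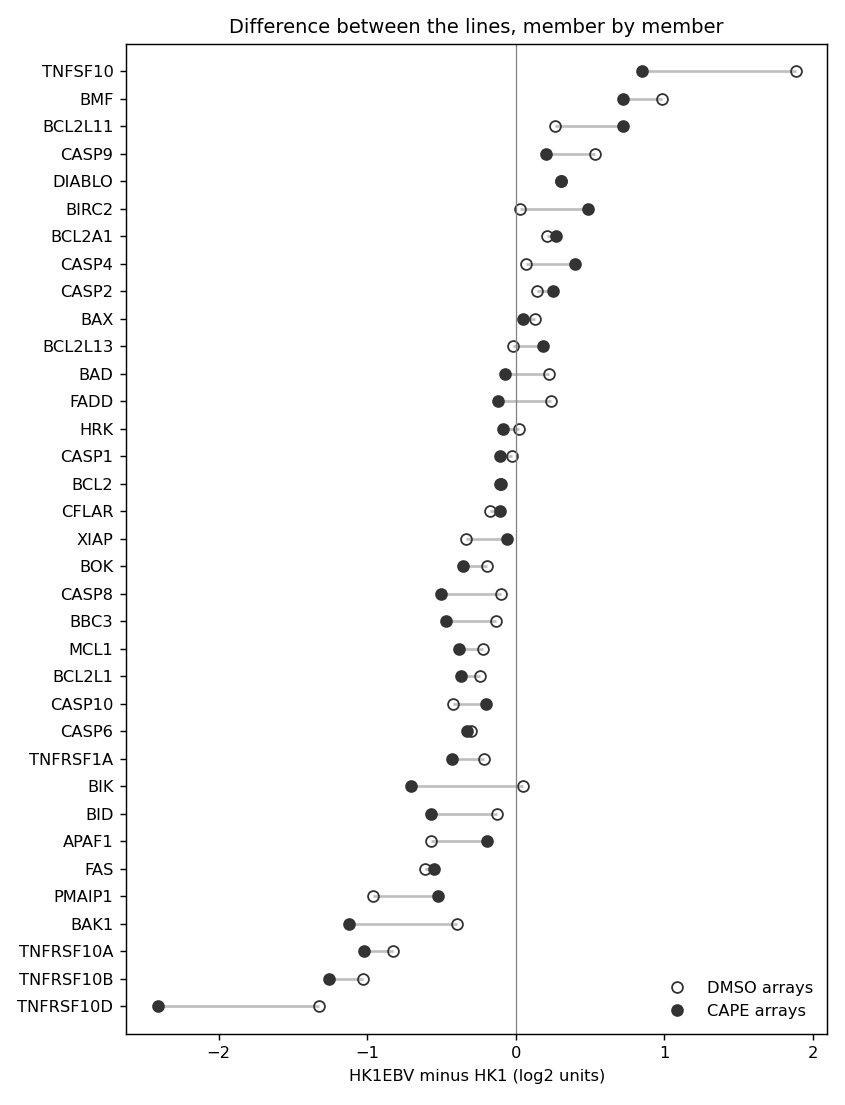
HK1EBV minus HK1 in log2 units for each of the 35 genes, ordered by the mean of both treatments, with open points for the DMSO arrays and filled points for the CAPE arrays. TNFSF10 and BMF lie at the top, at 1.88 and 0.98 in DMSO, and TNFRSF10D, TNFRSF10B and TNFRSF10A at the bottom, at -1.32, -1.03 and -0.83.

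The ligand comes first by role. TNFSF10 read 3.90 in HK1 with DMSO, 5.35 in HK1 with CAPE, 5.79 in HK1EBV with DMSO and 6.20 in HK1EBV with CAPE. The HK1 control was the low array, and both HK1EBV arrays stood above both HK1 arrays. The CAPE change was 2.73-fold in HK1 and 1.33-fold in HK1EBV, with a mean of 0.93 ± 0.26 (moderated SE of limma, n = 2 lines, adjusted p = 0.158, range over settings 0.0195 to 0.801). The line difference was 1.88 in DMSO and 0.85 under CAPE, with a mean of 1.37 ± 0.26 (n = 2 treatments, limma adjusted p = 0.0672, range 0.00199 to 0.388). Among the 15194 genes tested this mean was the 41st highest. TNFSF10 is also known as an interferon-stimulated gene.

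The 250 bases before the start of TNFSF10 are shown because this gene had the largest CAPE value, and those of BMF and PMAIP1 because these BH3-only genes differed between the lines in opposite directions. The sequences are RefSeq's on GRCh38.p14, read 5′ to 3′ along the gene, at chr3:172523431-172523680 (minus strand) for TNFSF10, chr15:40108880-40109129 (minus) for BMF, the first of its 2 listed starts, and chr18:59899746-59899995 (plus) for PMAIP1. Capitals mark matches on either strand to 4 motifs. The interferon response element was searched as 2 copies of GAAA with any 2 bases between them. The box bound by the TATA-binding protein, near which transcription often starts, was searched as TATAAA. The GC box, a binding motif of the SP1 family, was searched as GGGCGG, and the NF-κB motif as its consensus. No marked match overlaps another.
TNFSF10: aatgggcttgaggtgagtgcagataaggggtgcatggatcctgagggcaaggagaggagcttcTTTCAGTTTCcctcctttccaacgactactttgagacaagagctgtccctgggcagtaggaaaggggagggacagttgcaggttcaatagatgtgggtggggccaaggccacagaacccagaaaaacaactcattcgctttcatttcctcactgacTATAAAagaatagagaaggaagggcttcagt
BMF: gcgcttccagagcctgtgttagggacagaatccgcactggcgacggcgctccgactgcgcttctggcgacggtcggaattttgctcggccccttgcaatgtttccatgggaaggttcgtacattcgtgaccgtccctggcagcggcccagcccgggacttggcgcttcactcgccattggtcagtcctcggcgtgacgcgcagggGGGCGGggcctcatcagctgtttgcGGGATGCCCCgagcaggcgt
PMAIP1: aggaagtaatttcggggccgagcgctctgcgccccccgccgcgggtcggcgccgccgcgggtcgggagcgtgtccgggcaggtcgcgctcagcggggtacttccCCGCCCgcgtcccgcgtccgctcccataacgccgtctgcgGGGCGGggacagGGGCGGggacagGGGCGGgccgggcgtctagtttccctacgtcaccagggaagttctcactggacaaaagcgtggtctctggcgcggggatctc

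In TNFSF10 the interferon element began 187 bases before the start and the TATA box 31 bases before it. The window of PMAIP1 held 4 GC boxes, and that of BMF 1 GC box and 1 NF-κB match, 20 bases before the start. Of all 35116 windows of this length, 3.02% held the interferon element, 10.7% the TATA box, 42.6% the GC box and 9.96% the NF-κB consensus. Windows were found for 28 of the 35 genes, of which 2 held the interferon element, 4 the TATA box, 22 the GC box and 4 the NF-κB consensus. A match is a description of letters and not a binding site.

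All 5 receptors of this set were lower in HK1EBV under both treatments, against 31.7% of all genes, with a median difference of -0.93. Of related receptors outside this set, TNFRSF21 differed by 0.26 in DMSO and -0.10 under CAPE. TNFRSF25 differed by -0.02 and -0.11, and TNFRSF1B by -0.01 and 0.03. TNFRSF10A read 6.08 and 5.91 in HK1 (DMSO, CAPE) and 5.25 and 4.88 in HK1EBV. Both HK1EBV arrays lay under both HK1 arrays, with a mean line difference of -0.93 ± 0.12 (n = 2 treatments, limma adjusted p = 0.0426, range over settings 0.00162 to 0.211). TNFRSF10B, the other signalling receptor of TRAIL and a known target of p53 and of the stress factor DDIT3, read 5.74 and 6.29 in HK1 and 4.71 and 5.04 in HK1EBV. Its lines were again apart, by -1.14 ± 0.12 (limma adjusted p = 0.0347, range 0.000511 to 0.232).

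With CAPE the signalling receptors took opposite values. TNFRSF10B differed by 0.56 in HK1 and 0.33 in HK1EBV (mean 0.44 ± 0.12, n = 2 lines, limma adjusted p = 0.155), and TNFRSF10A differed by -0.17 and -0.37 (mean -0.27 ± 0.12, 0.306). DDIT3 stood at 4.03 and 3.93 with DMSO and at 5.43 and 6.33 with CAPE in HK1 and HK1EBV, higher by 1.39 and 2.40. A link between DDIT3 and TNFRSF10B was not tested.

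TNFRSF10D, the decoy receptor, had the widest range of the set. It read 4.60 with DMSO and 5.17 with CAPE in HK1, and 3.28 and 2.76 in HK1EBV. The line difference of -1.32 in DMSO grew to -2.41 under CAPE, since the CAPE changes of 0.57 and -0.52 pointed opposite ways. Its mean line difference of -1.87 ± 0.27 (n = 2 treatments, limma adjusted p = 0.0482, range 0.00038 to 0.174) was the 13th lowest of all genes tested. The 3 measured TRAIL receptor genes are paralogs on chromosome 8, with no other tested gene between them. TNFRSF10C, a related receptor outside this set, had no value. Whether their probe sets share signal was not tested.

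FAS, the receptor of FAS ligand, read 5.40 and 5.34 in HK1 and 4.79 on both HK1EBV arrays. The lines did not overlap, and the CAPE differences were -0.06 and 0.00. The mean line difference was -0.58 ± 0.11 (n = 2 treatments, limma adjusted p = 0.0677, range 0.0156 to 0.210). TNFRSF1A, the main TNF receptor, read 6.09 and 6.41 in HK1 and 5.88 and 5.98 in HK1EBV, a mean line difference of -0.32 that did not pass.

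**Figure D4:**
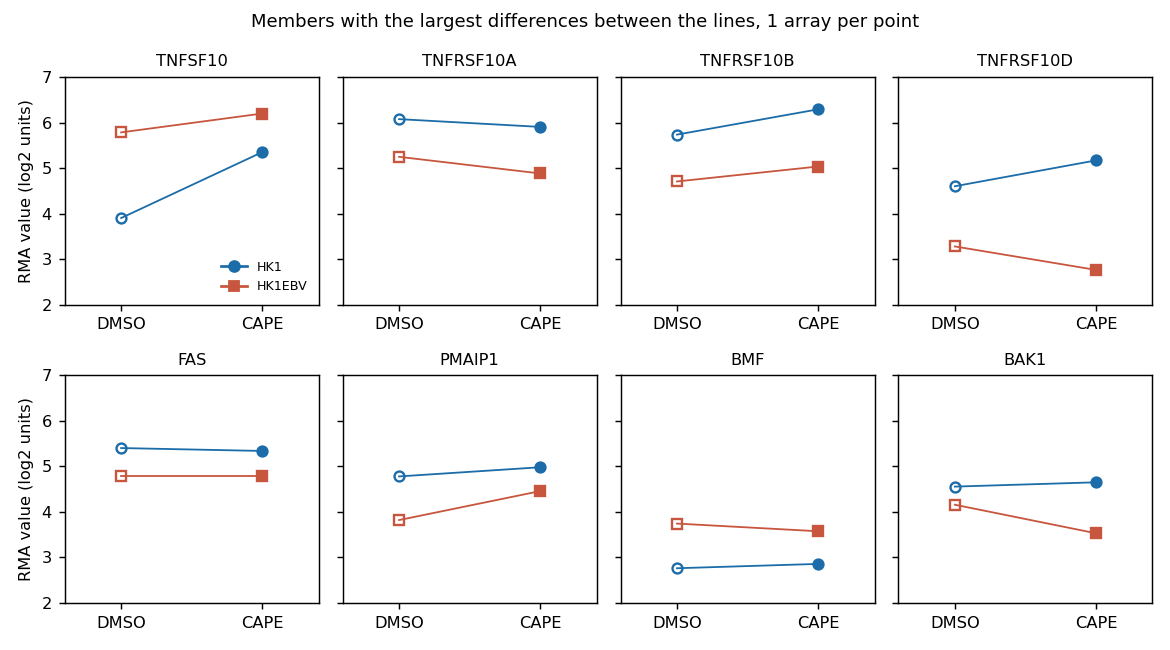
RMA values in log2 units (vertical) with DMSO and CAPE (horizontal) for 8 genes with large line differences, HK1 in blue circles and HK1EBV in red squares, 1 array per point. HK1EBV lies above HK1 for TNFSF10 and BMF and below it for the other 6, and the TNFRSF10D lines diverge from 4.60 and 3.28 to 5.17 and 2.76.

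At the receptor complex, the adaptor FADD read 5.67 and 5.68 in HK1 and 5.91 and 5.56 in HK1EBV. CASP8, the initiator caspase it recruits, read 4.49 and 4.41 in HK1 and 4.39 and 3.91 in HK1EBV. The HK1EBV CAPE array was its low one, and the CAPE changes were -0.08 and -0.48 (mean -0.28 ± 0.14, n = 2 lines, limma adjusted p = 0.365). CASP10, a related initiator, and CFLAR, its inhibitor, stayed under the array medians at 1.18 to 1.61 and 1.10 to 1.38. A fall from such levels may not show.

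The 2 measured inhibitors of apoptosis of this set, BIRC2 and XIAP, were higher with CAPE in both lines, without passing. Of other genes of the family, BIRC5 at -0.65 and -0.69 and BIRC6 at -0.42 and -0.26 were lower in both lines. BIRC7 was higher in HK1 at 0.32 and level in HK1EBV at 0.00. BIRC2, which ubiquitinates RIPK1 and NIK, read 4.34 and 4.37 with DMSO and 4.67 and 5.16 with CAPE in HK1 and HK1EBV. Both CAPE arrays exceeded both control arrays, by 0.33 and 0.79 (mean 0.56 ± 0.15, n = 2 lines, limma adjusted p = 0.153, range 0.0418 to 0.548). XIAP, a direct inhibitor of caspases, read 4.22 and 3.89 with DMSO and 4.42 and 4.36 with CAPE. It differed by 0.20 and 0.48 (mean 0.34 ± 0.13, limma adjusted p = 0.241).

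DIABLO, the mitochondrial antagonist of these inhibitors, was likewise higher by 0.34 in each line, from 4.27 to 4.61 in HK1 and from 4.57 to 4.91 in HK1EBV. HK1EBV also exceeded HK1 by 0.31 with either treatment, and neither mean passed (limma adjusted p = 0.197 for CAPE and 0.193 for the line). APAF1, the scaffold of the apoptosome, read 5.21 and 4.91 in HK1 and 4.64 and 4.72 in HK1EBV. Its HK1 arrays were the higher ones, by 0.57 in DMSO and 0.20 under CAPE, and the CAPE values of -0.30 and 0.07 differed in sign.

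The caspases shared no direction. CASP9, the initiator of the apoptosome, read 3.70 in HK1 with DMSO and 4.21, 4.23 and 4.42 on the HK1 CAPE, HK1EBV DMSO and HK1EBV CAPE arrays. The HK1 control stood apart as the low array, and the CAPE changes were 0.52 and 0.19 (mean 0.35 ± 0.13, n = 2 lines, limma adjusted p = 0.244). CASP4, the inflammatory caspase that senses lipopolysaccharide, was higher with CAPE by 0.29 in HK1, from 5.55 to 5.84, and by 0.61 in HK1EBV, from 5.62 to 6.23 (mean 0.45 ± 0.13, limma adjusted p = 0.170). CASP1, which matures IL-1β, was dim at 1.41 to 1.67. CASP2 differed by -0.31 and -0.20 with CAPE and the executioner CASP6 by -0.11 and -0.13. Of 7 caspases, 3 were higher and 3 lower with CAPE in both lines, against 32.1% and 29.5% of all genes.

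Among the BCL2-like inhibitors, BCL2L1, encoding BCL-XL, read 6.71 and 7.04 in HK1 and 6.47 and 6.67 in HK1EBV. It was higher with CAPE by 0.33 and 0.20 (mean 0.26 ± 0.11, n = 2 lines, limma adjusted p = 0.297). MCL1, a short-lived inhibitor, read 7.46 and 7.69 in HK1 and 7.24 and 7.30 in HK1EBV. Both were lower in HK1EBV, with a mean line difference of -0.30 each that did not pass. BCL2 itself at 1.47 to 1.67 and the NF-κB target BCL2A1 at 0.97 to 1.24 were under the array medians.

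Of the pore formers, BAX was nearly level, at 5.19 to 5.32 on all arrays. BAK1 read 4.56 and 4.65 in HK1 and 4.16 and 3.53 in HK1EBV. The HK1EBV CAPE array was the low one, with CAPE changes of 0.09 and -0.63 and line differences of -0.40 in DMSO and -1.12 under CAPE. The mean line difference of -0.76 ± 0.20 (n = 2 treatments, limma adjusted p = 0.114, range 0.0152 to 0.332) did not pass. BOK differed between the lines by -0.20 and -0.35.

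The BH3-only genes differed between the lines in both directions. BMF, which binds BCL2-like inhibitors after loss of anchorage, read 2.76 and 2.86 in HK1 and 3.74 and 3.58 in HK1EBV. Both HK1EBV arrays stood above both HK1 arrays, by 0.98 in DMSO and 0.72 under CAPE. The mean was 0.85 ± 0.12 (n = 2 treatments, limma adjusted p = 0.0482, range 0.00283 to 0.171), and with a trended prior the call was lost. BCL2L11, encoding BIM, followed BMF in direction, at 2.65 and 2.51 in HK1 and 2.91 and 3.23 in HK1EBV, a mean difference of 0.49 ± 0.15 (limma adjusted p = 0.152).

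PMAIP1, encoding NOXA, a partner of MCL1 and a p53 target, had the reverse order. It read 4.78 and 4.98 in HK1 and 3.82 and 4.46 in HK1EBV, so the HK1EBV control was the low array. The line difference was -0.96 in DMSO and -0.52 under CAPE (mean -0.74 ± 0.15, n = 2 treatments, limma adjusted p = 0.0722, range 0.00822 to 0.350). The CAPE arrays exceeded their controls by 0.20 in HK1 and by 0.64 in HK1EBV, or 1.15-fold and 1.55-fold (mean 0.42 ± 0.15, limma adjusted p = 0.220).

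BID, which links CASP8 to mitochondria, read 5.64 and 5.75 in HK1 and 5.51 and 5.18 in HK1EBV. BIK read 2.66 and 3.04 in HK1 and 2.71 and 2.33 in HK1EBV, nearly equal with DMSO and 0.70 lower in HK1EBV under CAPE. BBC3, encoding PUMA, another p53 target, differed by 0.37 with CAPE in HK1 and 0.03 in HK1EBV. BAD and HRK differed by -0.24 to 0.06 with CAPE. BCL2L13, an atypical mitochondrial member of the family, differed by -0.28 and -0.08.

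How far the CAPE change of HK1EBV departed from that of HK1 has no test, since it is the residual of the fit. It was at least 1.5-fold for 4 members, all with the lower value in HK1EBV, against 3.49% of all genes in that direction and 2.80% in the other. They were TNFRSF10D at -1.08, TNFSF10 at -1.03, BIK at -0.75 and BAK1 at -0.72. Next came BIRC2 and BCL2L11 at 0.46 each, BID at -0.44 and PMAIP1 at 0.44.

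Of 58 other genes of death pathways, 54 had a value and 48 were tested, and 0 passed in limma for CAPE or for the line. At an unadjusted p under 0.05, 7 were higher and 8 lower with CAPE, against 10.2% and 9.31% of all genes. For the line 5 were higher and 3 lower, against 12.4% and 10.6%. Median CAPE changes of the 48 were -0.03 in HK1 and -0.06 in HK1EBV. The genes furthest from 0 in both lines included the mitophagy receptors BNIP3, 3.99-fold higher in HK1 and 2.38-fold in HK1EBV, and BNIP3L, 2.82-fold and 1.80-fold. CYLD, a deubiquitinase acting on RIPK1, was higher by 0.74 and 0.89 and the TNF receptor adaptor TRADD by 0.90 and 0.48. BIRC5, encoding survivin, was lower by the values above, and MLKL, the effector of necroptosis, differed by -0.78 and -0.56. These 6 had adjusted p from 0.0672 to 0.109 in limma, and without the genes of zero residual all 6 passed, among 5 higher and 2 lower of this list, against 4.07% and 4.14% of all genes. The fifth higher one, named after its values were seen, was the adaptor TRAF1, 2.46-fold higher in HK1 and 1.38-fold in HK1EBV. Between the lines, DEDD2 was 0.57 higher in HK1EBV, BCL2L12 0.43 and AIFM1 0.42, and TRAF3 differed by -0.56. Without the genes of zero residual 1 of this list passed as higher for the line, DEDD2, and 1 as lower, TRAF3, against 6.26% and 5.34% of all genes.

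Of 19 transcription factors and feedback regulators that act on these genes, 17 were tested. Their median CAPE change was 0.31 in HK1 and 0.49 in HK1EBV, and 0 passed for CAPE (limma, 9 higher and 0 lower at an unadjusted p under 0.05, against 10.2% and 9.31% of all genes). Without the genes of zero residual 6 passed as higher and 0 as lower, against 4.07% and 4.14%, namely DDIT3, NFKB2, TNFAIP3, ATF3, TRIB3 and JUN. DDIT3 was higher by 1.39 and 2.40, ATF3 by 1.21 and 0.80, TRIB3 by 0.60 and 1.02 and JUN by 0.45 and 0.67. TNFAIP3, a feedback inhibitor of NF-κB, was higher by 1.06 and 1.35, and NFKB2 by 1.08 and 1.17. For the line, 0 of the 17 passed as higher in HK1EBV and 3 as lower, against 1.32% and 1.58% of all genes. TNFAIP3 was lower by 1.17, JUN by 1.08 and NFKB1 by 0.71 on the log2 scale, with limma adjusted p of 0.0363, 0.0363 and 0.0495. Over the settings run, these reached up to 0.50, 0.30 and 0.17. STAT3 differed by -0.44 and did not pass.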

How the data were processed

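The authors deposited 1 table of RMA values, per the submitters' processing notes, taken as log2 because RMA gives that scale. The sources used here do not give its centring, RMA version or build. Of 25800 probe sets, 18612 had 1 gene symbol, 954 several and 6234 none. Those with 1 symbol gave 18323 genes, by the brightest probe set, and every measured member had 1. Genes whose mean reached the 25th percentile (0.997) were tested, 15194 in all. limma 3.58.1 (R 4.3.3) was fitted on all 4 arrays with terms for line and for treatment, leaving 1 residual degree of freedom, two-sided, at an adjusted p under 0.05. With 1 array per group, that residual is the departure of the 4 arrays from added line and treatment effects. P-values rest on this departure, moderated over genes, and not on a spread between replicates. It may be technical. The code was tested on simulated data. Members, lists and tests were chosen with earlier results of these data known. Array values are given in full for members with the 12 largest CAPE, 10 largest line and 8 largest differential values, and for members past a test. From the other lists, 6 genes for CAPE and 4 for the line are named, and TRAIL neighbours were chosen after their values were seen. Promoters came from RefSeq (GRCh38.p14). Alternatives changed the filter, scaling, probe set rule, prior, terms, threshold and genes of zero residual. Tables used Python 3.11.15.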

Additional observations from a re-analysis of the deposited data

Results flagged for a closer look

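In 3 members the CAPE change pointed opposite ways in the 2 lines and differed between them by at least 1.5-fold, 8.57% of the members against 4.46% of all genes. For TNFRSF10D it was 0.57 in HK1 and -0.52 in HK1EBV, a difference of -1.08. For BIK it was 0.37 and -0.38, a difference of -0.75, and for BAK1 0.09 and -0.63, a difference of -0.72. With 1 array per group these differences were not tested. Another 9 members had opposite signs with a smaller difference, which makes 34.3% with opposite signs against 35.7% of all genes.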

How the results depend on the processing

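The counts of calls depended on the setting. For CAPE, 1 gene of all passed, against 0 with no filter, 894 with a filter at the 50th percentile, 1006 with arrays shifted to one median, 755 with quantile normalization, 7 with a trended prior, 379 with a robust prior, 0 with no block, 1243 without genes of zero residual and 544 at an adjusted p under 0.1. Members past it were 0, against 1 with arrays shifted to one median (TNFSF10) and 2 without genes of zero residual. For the line, 440 genes passed, against 0, 1296, 1526 and 1321 with these filters and scalings, 959 with a robust prior, 0 with no block, 1756 without genes of zero residual and 1390 at 0.1. Members were 4, against 0 with no filter or no block, 7 with a robust prior or at 0.1, and 8 with the stricter filter, either scaling or without genes of zero residual. Dropping genes of zero residual moved limma's prior degrees of freedom from 3.90 to 9.89. Counts of members at 1.5-fold within a line or treatment stayed within 1.5 times, but most settings could not change them. Every measured member had 1 probe set, the prior and terms do not enter these counts, and a filter can only drop dim members. That left the scalings, under which lower members under CAPE went from 5 to 6 with quantile normalization. Among called values, 0 signs were reversed. Leaving out an array was not run, because it leaves no residual degrees of freedom. The fit compares treatments within lines and lines within treatments, and the fit with no block removes that pairing. Pairing by replicate number could not be run, since the labels carry none. For 5 members under the median level of probe sets (2.26) signal limits what can be seen.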

Other observations

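The genes beside the TRAIL receptors on chromosome 8 were read the same way, a choice made after the receptor values were seen. Of the 10 tested genes on each side, 15 of 20 were lower in HK1EBV under both treatments, against 31.7% of all genes. Their median line difference was -0.27, where the 521 genes tested on this chromosome had -0.11. DOCK5, a guanine nucleotide exchange factor, differed by -0.86 in DMSO and -1.14 under CAPE, SLC25A37, a mitochondrial iron importer, by a mean of -0.82, LOXL2, a collagen crosslinking enzyme, by -0.07 and -1.35, and RHOBTB2 by a mean of -0.60. Of the 20, DOCK5 (limma adjusted p = 0.0422) and SLC25A37 (only just under 0.05) passed the test, where 1.58% of all genes passed as lower. LOXL2 and RHOBTB2 did not pass (limma adjusted p = 0.261 and 0.0701). The receptors themselves, at means of -0.93 (TNFRSF10A), -1.14 (TNFRSF10B) and -1.87 (TNFRSF10D), lay below the median of these neighbours. TNFRSF10A did not lie below all of them, since DOCK5 was lower than it under both treatments. TNFRSF10B and TNFRSF10D had lower means than each of the 20 neighbours. What sets these values was not tested.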
